A study of Mus musculus with 4 samples.

Results

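Cytosolic ribosomal protein genes encode the proteins of the large (Rpl) and small (Rps) subunits of the ribosome in the cytoplasm. They were taken as the genes whose single symbol is Rpl, Rps or Rplp, followed by digits and at most 1 of the letters a, x or l, each represented by its brightest row. This gave 37 of the 30142 genes with a single symbol on the arrays, 23 named for the large and 14 for the small subunit. The gene table holds 82 symbols of this form, and the other 45 had no row with a single symbol. The counts below cover only the 37. Expression was measured with Affymetrix arrays in 4T1 cells. They come from a metastatic mouse mammary tumour and stand in for triple-negative disease, which lacks hormone receptors and Erbb2 amplification. The groups were 4T1 cells labelled shMCT-1, in which a short hairpin was to silence MCT-1 (gene Mcts1) and which were selected in puromycin, and 4T1 cells with a scramble control (NC), with 2 arrays each labelled as independent biological replicates. The labels speak of shMCT-1 clones, without saying whether each replicate is a different clone or whether NC cells also received puromycin. P-values therefore measure only the spread between these samples.

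Ribosomal proteins assemble with ribosomal RNA in near-equal numbers, so their mRNAs are usually made and translated in step, and they are among the most abundant mRNAs of growing cells. Their transcripts typically begin with a C followed by a run of pyrimidines, the 5′ terminal oligopyrimidine (TOP) tract, through which the growth regulator mTOR and the RNA-binding protein Larp1 govern their translation. Tumour cells often make ribosomes at a high rate, and the transcription factor Myc is known to drive both ribosomal protein genes and the factors that build ribosomes. MCT-1 itself acts with Denr on the ribosome, in reinitiation of translation.

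The sequences around the annotated starts are shown because these genes are known for the TOP tract at that place. The windows are from RefSeq (GRCm38.p6), which held a start for 31 of the 37 genes, and run from 10 bases before to 20 bases from the start, 5′ to 3′, with the longest pyrimidine run near the start in capitals. The first 5 belong to the genes with a window and the most positive difference between the groups, the other 5 to those with the most negative one. Rpl6l had no entry, and the first of the 2 listed starts is shown for Rpl3l.
Rpl37a (chr1:72711250-72711279, + strand): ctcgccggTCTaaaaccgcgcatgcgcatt
Rpl7a (chr2:26910797-26910826, + strand): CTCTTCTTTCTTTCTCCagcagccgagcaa
Rps9 (chr7:3704031-3704060, + strand): cttgTCTCTCTTTgtctcgggcctgagttc
Rpl38 (chr11:114668570-114668599, + strand): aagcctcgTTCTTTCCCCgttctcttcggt
Rps28 (chr17:33824543-33824572, - strand): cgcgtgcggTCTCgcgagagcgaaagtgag
Rpl4 (chr9:64173377-64173406, + strand): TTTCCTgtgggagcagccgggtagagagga
Rpl39 (chrX:37085203-37085232, - strand): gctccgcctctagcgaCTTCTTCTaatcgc
Rps7 (chr12:28635934-28635963, - strand): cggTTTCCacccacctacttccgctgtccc
Rplp0 (chr5:115559457-115559486, + strand): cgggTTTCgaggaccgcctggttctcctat
Rpl3l (chr17:24727816-24727845, + strand): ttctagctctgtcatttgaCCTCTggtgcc

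A C followed by at least 4 C or T within 5 bases of an annotated start was found in 14 of the 31 genes (45.2%), against 5718 of all 27025 genes in the table (21.2%). Exactly at the start it was found in 5 genes (16.1%), against 3.01% of all genes. The letters CCGGAA, on either strand of the RefSeq promoter window around the start, stood in 17 of the 31 genes (54.8%) and in 16.7% of all genes. The letters GGGCGG stood in 48.4% and 38.2%, and TATAAA in 16.1% and 15.7%. TATAAA and GGGCGG were also read on both strands, GGGCGG and CCGGAA can share bases on opposite strands, and the search at the start is part of the search within 5 bases. The 14 genes with the pyrimidine letters near the start had a median log2 difference of 0.13 between the groups, against 0.092 for the 17 without them.

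The targeted gene was measured first, as a check of the labels. Mcts1 was at 7.81 and 7.89 in the arrays labelled shMCT-1, against 7.86 and 8.05 in NC, all in log2 units. The groups overlap, and the log2 difference was -0.10 (SE 0.122, adjusted p = 0.945, limma). The arrays are therefore called those labelled shMCT-1. Among 6 epithelial markers, Epcam, Cdh1, Krt8 and Krt18 were bright, with row means of 12.5, 14.2, 15.9 and 16.6, and Krt5 was at 4.92. The receptor genes Esr1, Pgr and Erbb2 had row means of 5.12, 3.04 and 7.53, at percentiles 72.5, 18.1 and 84.7 of all rows. The groups lay apart in the lower direction for Esr1 (-0.38, adjusted p = 0.882, limma) and Erbb2 (-0.22, adjusted p = 0.890), as in 14.0% of all rows. They overlapped for Pgr (0.13). Krt14, a basal keratin, was at 11.12 and 11.20 in the arrays labelled shMCT-1, against 12.92 and 12.76 in NC (-1.68, adjusted p = 0.669, limma). Markers of other cell types lay near the median of all rows, 3.68, with row means from 2.88 to 3.40 for 4 leukocyte genes, 2.99 to 3.91 for 3 fibroblast genes and 3.31 to 4.00 for 3 endothelial genes. In bulk RNA of this kind, fewer cells of a type and less RNA per cell cannot be told apart.

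Most ribosomal protein genes had a slightly higher mean with the shMCT-1 label, none past the adjusted threshold, and the difference was smaller without NC replicate 1. Of the 37 genes, 32 had a higher mean with that label, against 56.4% of all 65956 rows and 61.1% of the 6596 bright rows (those above the 90th percentile of mean signal). The median log2 difference was 0.10, with quartiles of 0.022 and 0.18, against 0.024 over all rows and 0.055 over the bright rows. The arrays of the groups did not overlap in 15 genes with the higher mean under shMCT-1, where 19.8% of all rows and 23.3% of the bright rows did so. They did not overlap in 2 lower genes, against 14.0% of all rows and 16.9% of the bright rows. With limma, 0 of the 37 genes had an adjusted p under 0.05, the background being 0.00% of rows, and 1 gene, Rpl7a, had an unadjusted p under 0.05 in the higher direction, against 3.08% of all rows and 4.59% of the bright rows. The count in the lower direction was 0, against 2.52% and 4.08%. The largest difference, that of Rpl37a, was 1.35-fold.

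**Figure D1:**
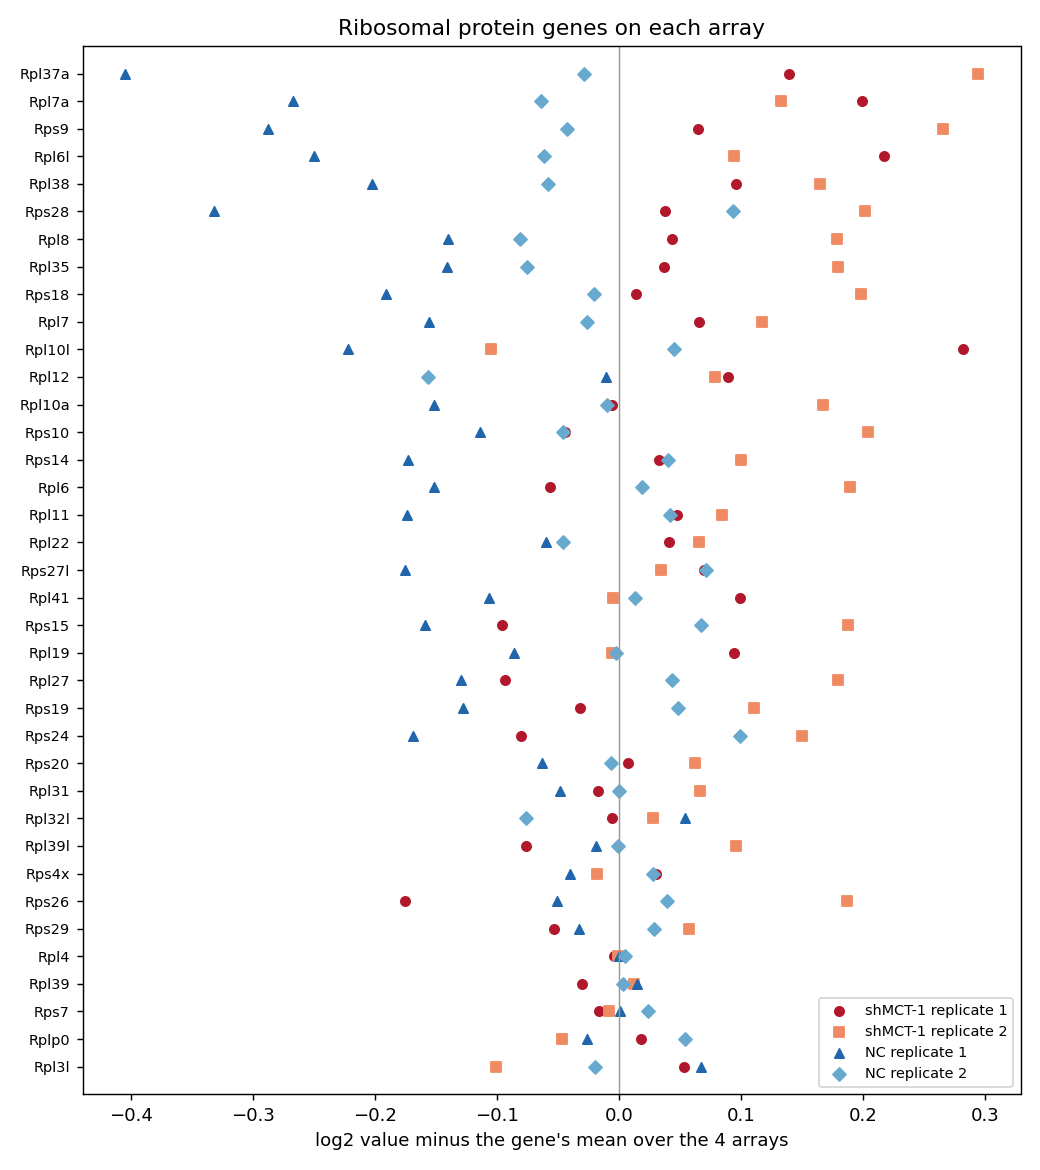
Log2 value of each of the 37 ribosomal protein genes on each array, minus that gene's mean over the 4 arrays, with genes ordered from the most positive to the most negative group difference. NC replicate 1 (upright triangles) is the lowest array in 27 genes and shMCT-1 replicate 2 (squares) the highest in 23.

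The members' values varied within the groups as well as between them. Relative to each gene's own mean, the median gene stood at 0.031 and 0.096 on shMCT-1 replicates 1 and 2, and at -0.13 and -0.00027 on NC replicates 1 and 2. NC replicate 1 was the lowest of the 4 arrays in 27 of the 37 genes (73.0%), against 32.7% of all rows and 49.5% of the bright rows. At the other end, shMCT-1 replicate 2 was the highest in 23 genes (62.2%), against 28.3% of all rows and 42.4% of the bright rows. Between replicates of 1 group, NC replicate 1 was below NC replicate 2 in 33 genes, with a median log2 gap of -0.12, and shMCT-1 replicate 1 was below shMCT-1 replicate 2 in 27, with a median gap of -0.066. The median gap within NC was thus larger in size than the median difference between the groups, and that within the arrays labelled shMCT-1 was smaller. These gaps are between single arrays, whereas the group difference is between means of 2 arrays, which vary less.

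Set against NC replicate 2 alone, the 37 genes had differences of both signs on shMCT-1 replicate 1. There 21 were higher (56.8%, against 54.5% of all rows and 41.9% of bright rows) and 16 lower, with a median log2 difference of 0.0045. On shMCT-1 replicate 2, 28 were higher (75.7%, against 51.9% of all rows and 56.6% of bright rows) and 9 lower than on NC replicate 2, with a median of 0.10. Against NC replicate 1, shMCT-1 replicate 1 was higher in 29 genes (78.4%, against 58.3% of all rows and 61.4% of bright rows) and lower in 8, with a median of 0.0996. For shMCT-1 replicate 2 against NC replicate 1 it was 31 (83.8%, against 52.3% of all rows and 65.0% of bright rows) and 6, with a median of 0.24. Without NC replicate 1, the mean of the arrays labelled shMCT-1 was higher in 24 of the 37 genes (64.9%), against 54.2% of all rows, with a median of 0.034 against 0.016 over all rows. Leaving out NC replicate 2 instead gave 32 higher genes (86.5%) and a median of 0.19, against 56.6% and 0.030 over all rows. The part of array-wide differences in this was not tested. For comparison, the bright rows had a median deviation of -0.013 and 0.059 on shMCT-1 replicates 1 and 2 and -0.073 and 0.032 on NC replicates 1 and 2. Their median for shMCT-1 replicate 1 minus NC replicate 2 was -0.044, against 0.0045 for the 37 genes. When each array was centred on those bright rows, the median difference of the 37 genes was 0.026, with 24 higher (64.9%) and 13 lower, against -0.054 and 36.2% higher over all rows.

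**Figure D2:**
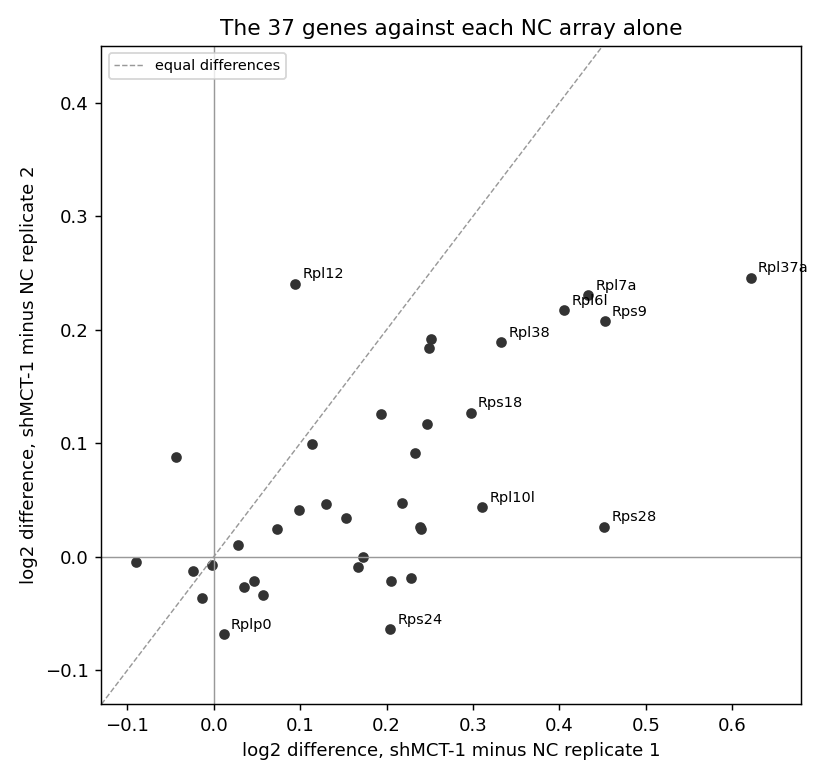
Log2 difference of the mean of the arrays labelled shMCT-1 from NC replicate 1 (horizontal axis) and from NC replicate 2 (vertical axis), with a point for each of the 37 genes and a dashed line where both are equal. Most points lie below the line, and the median is 0.19 against NC replicate 1 and 0.034 against NC replicate 2.

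The 5 genes with the most positive difference each had its lowest value on NC replicate 1. Rpl37a, a zinc-binding protein of the large subunit, was at 12.997 and 13.151 in the arrays labelled shMCT-1, against 12.452 and 12.828 in NC replicates 1 and 2. Its groups did not overlap, although the NC arrays were further apart than the arrays labelled shMCT-1 (log2 difference 0.43, SE 0.167, 95% interval -0.0026 to 0.87, adjusted p = 0.882, limma). Rpl7a, a large-subunit protein, was at 14.99 and 14.92, against 14.52 and 14.73 in NC. The groups lay apart by less than the gap within NC (difference 0.33, SE 0.123, unadjusted p = 0.0456, adjusted p = 0.882, limma). Rps9, which lies near the mRNA entry of the small subunit, was at 9.82 and 10.02, against 9.47 and 9.72 in NC, a difference of 0.33 (SE 0.145).

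Rpl6l, a copy of Rpl6 that the gene table lists as a pseudogene although its symbol meets the rule, was at 11.43 and 11.31 in the arrays labelled shMCT-1, against 10.97 and 11.16 in NC. Its groups lay apart with a difference of 0.31 (SE 0.125), whereas Rpl6 itself was at 9.78 and 10.02, against 9.68 and 9.85, and overlapped (0.13, SE 0.141). Rpl38, whose loss in mice causes skeletal patterning defects, was at 11.07 and 11.14, against 10.77 and 10.91 in NC (0.26, SE 0.114). Against NC replicate 2 alone, the 5 leading genes were still higher, by 0.25 for Rpl37a, 0.23 for Rpl7a, 0.22 for Rpl6l, 0.21 for Rps9 and 0.19 for Rpl38. These were also their lowest values with any 1 array left out. The 5 genes were picked by differences that include the same arrays, so this is no separate support for them.

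Rps28, a small-subunit protein near the mRNA exit, shows how much NC replicate 1 alone can weigh. It was at 8.05 and 8.21 in the arrays labelled shMCT-1, against 7.68 and 8.11 in NC, and only NC replicate 1 stood away from the others. Its difference of 0.24 (SE 0.180) became 0.027 without that array. Rpl12, a protein at the base of the ribosomal stalk, had the opposite pattern, with 18.01 and 17.99 against 17.91 and 17.76 in NC, so that its lowest array was NC replicate 2. Its difference was 0.17 (SE 0.112), and 0.094 without NC replicate 2.

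**Figure D3:**
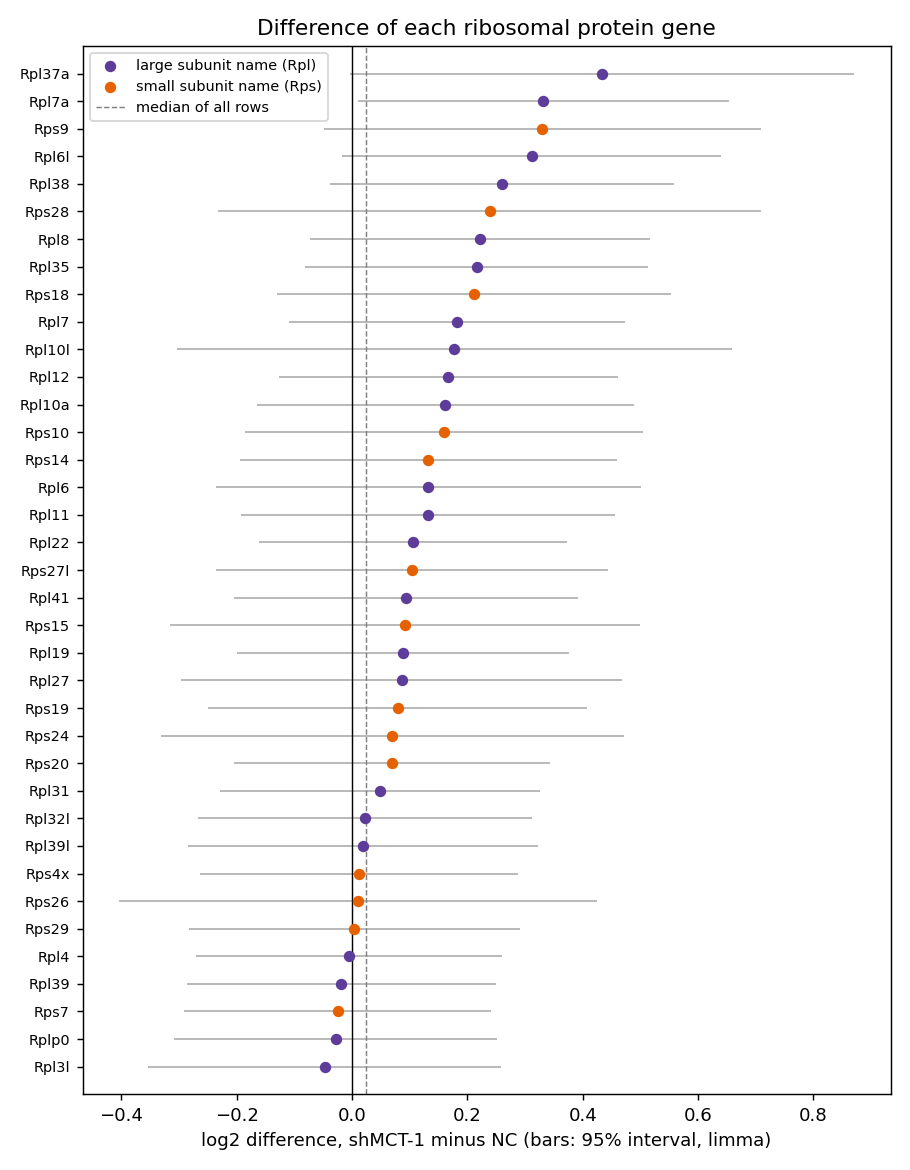
Log2 difference, shMCT-1 minus NC, of each of the 37 genes with its 95% interval from limma (2 arrays a group), coloured by subunit name. The intervals of 36 genes include 0, and that of Rpl7a starts at 0.0098.

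Genes of both subunits had mostly positive differences. Of the 23 large-subunit genes, 19 were higher (82.6%) and 4 lower (median log2 difference 0.13), with 11 (47.8%) whose groups lay apart in the higher direction. Of the 14 small-subunit genes, 13 were higher (92.9%) and 1 lower (median 0.086), with 4 (28.6%) lying apart in the higher direction. Over the bright rows 61.1% were higher and 23.3% lay apart in that direction, and over all rows 56.4% and 19.8%, so that the small-subunit share lying apart was near the background. The difference between the subunits was not tested. Other large-subunit genes whose groups lay apart were Rpl8, a protein near the peptidyl transferase centre (0.22), Rpl35 (0.22), Rpl7 (0.18), Rpl10a of the L1 stalk (0.16), Rpl11 (0.13) and Rpl22 (0.11). Among small-subunit genes they were Rps18 (0.21), Rps10 (0.16) and Rps20 (0.070). In each of these genes of both subunits, the narrowest gap was that of shMCT-1 replicate 1 above NC replicate 2. It ran from 0.0016 for Rps10 to 0.12 for Rpl8. It was also small for Rpl10a (0.0045), Rpl11 (0.0062) and Rps20 (0.013). Rps14 (0.13), Rps15 (0.092) and Rpl32l (0.022), whose symbol also ends in l, overlapped between the groups.

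Other genes had differences close to 0. Rpl4, which reaches into the tunnel of the nascent chain, was at 18.11 and 18.11 in the arrays labelled shMCT-1, against 18.12 and 18.12 in NC, the smallest spread of the 37 genes. Rps7 was at 16.92 and 16.93, against 16.94 and 16.96 in NC. In both genes the groups lay apart in the lower direction, by -0.0049 (95% interval -0.27 to 0.26) and -0.025 (-0.29 to 0.24). Rplp0, the core of the P stalk that recruits elongation factors, was at 15.35 and 15.28, against 15.30 and 15.38 in NC, and overlapped (-0.028, 95% interval -0.31 to 0.25). Rps29, a zinc-binding protein of the small subunit, was at 15.43 and 15.54, against 15.45 and 15.51 in NC (0.0042). Across the 37 genes the difference was almost unrelated to the mean signal (Pearson r = -0.051, Spearman rho = -0.13, as a description over genes that share the 4 arrays). Over the 35 genes at or above the median row, these values were -0.22 and -0.28. The 26 genes among the bright rows had a median difference of 0.093 and the other 11 had 0.13.

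Some ribosomal proteins also have roles in disease or in surveillance. In the 5S particle that binds Mdm2 and so activates p53, only Rpl11 had a row with a single symbol. It was at 7.15 and 7.18 in the arrays labelled shMCT-1, against 6.92 and 7.14 in NC. Of 10 genes mutated in Diamond-Blackfan anaemia, an inherited failure of red cell production, 6 had such a row. Of these, 5 were higher (83.3%, against 56.4% of all rows and 61.1% of bright rows) and 1 lower. They ranged from -0.025 for Rps7 to 0.16 for Rps10. An unadjusted limma p under 0.05 was found in 0, against 3.08% of all rows as higher and 2.52% as lower. Rps19, the gene mutated most often in that disease, was at 7.50 and 7.65, against 7.41 and 7.58 in NC, and the replicates of each group were further apart than the group means (0.079, SE 0.125). Rps26, which lies at the mRNA exit, was wide apart within the arrays labelled shMCT-1, at 16.99 and 17.35, against 17.11 and 17.20 in NC. Rps24 was at 10.46 and 10.69, against 10.37 and 10.64 in NC, so that its replicate 2 arrays stood above both replicate 1 arrays.

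Around the exit of the tunnel for the nascent chain, 4 of 6 listed genes had a row with a single symbol. Rpl35 was at 16.82 and 16.96 in the arrays labelled shMCT-1, against 16.64 and 16.71 in NC, and its groups lay apart. The other 3 overlapped, with log2 differences of 0.088 for Rpl19, 0.049 for Rpl31 and -0.018 for Rpl39. The X-linked genes Rpl39 and Rps4x were close to 0, Rps4x with 13.52 and 13.47 against 13.44 and 13.51 in NC (0.012, 95% interval -0.26 to 0.29).

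Of 4 paralogs known for restricted or stress-linked expression, 2 were dim. Rpl3l, the muscle form of Rpl3, was at 3.25 and 3.10 in the arrays labelled shMCT-1, against 3.27 and 3.18 in NC, and Rpl39l, a germ-cell form of Rpl39, was at 3.39 and 3.56, against 3.45 and 3.47. Both rows lay below the median of all rows. Rpl10l, the testis form of Rpl10, was at 4.16 and 3.77, against 3.66 and 3.92 in NC, a little above that median and with overlapping groups. Rps27l, a paralog of Rps27 that p53 induces, was bright at 11.58 and 11.54, against 11.33 and 11.58 in NC (0.10, and -0.019 without NC replicate 1).

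Several genes had more than 1 row, which gives a second reading of the same name. The 2 rows of Rpl35 gave 0.22 and 0.22, those of Rpl7a 0.33 and 0.28, those of Rpl27 0.086 and 0.097, and those of Rpl41 0.094 and 0.30. For Rps26 the chosen row gave 0.011 and the other rows -0.056 and -0.0027. Row identifiers begin with a chromosome number, which matched the chromosome of the named gene in 99.04% of 30291 named rows. In 6 of the 37 genes (Rpl7a, Rpl12, Rpl27, Rpl31, Rpl35 and Rpl41) the brightest row carried another chromosome. Ribosomal protein genes have many processed copies, so probes of these rows may share signal with the parent gene and the split of signal among copies is uncertain. Rpl12 and Rpl31 had no single-symbol row on their own chromosome, so all their values come from a row that carries another. With the brightest row on the gene's own chromosome, 30 of 35 genes were higher (median 0.11), and 0 of them had an unadjusted limma p under 0.05. That row of Rpl7a gave an unadjusted p of 0.0568 (limma).

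The symbol pattern also occurred on 53 rows that listed other symbols beside it. These rows were outside the rule and are given without gene names. Of the 53, 43 were higher with the shMCT-1 label (81.1%) and 10 lower, against 61.1% higher among bright rows, with a median log2 difference of 0.087 against 0.055. NC replicate 1 was the lowest array in 37 of them (69.8%), against 49.5% of bright rows, and shMCT-1 replicate 2 the highest in 33 (62.3%), against 42.4%. The groups lay apart in the higher direction in 27 (50.9%), against 23.3% of bright rows, and in the lower direction in 6 (11.3%), against 16.9%. An unadjusted limma p under 0.05 was found in 3, all higher, against 4.59% of bright rows, which is near that background, and an adjusted p under 0.05 in 0.

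Other parts of the cytosolic ribosome and its regulators were set beside the list. Over all rows 56.4% were higher, and over bright rows 61.1%. An unadjusted limma p under 0.05 was found in 3.08% of all rows as higher and in 2.52% as lower. Of 8 ribosomal genes that the pattern leaves out, 5 had a row with a single symbol. Of these, 4 were higher (80%, median 0.10, 0 at an unadjusted limma p under 0.05). The 5 genes included Rpsa, also a laminin receptor, at -0.019, and Fau, a fusion of a ubiquitin-like protein with a small-subunit protein, at 0.10. Rpl7l1, a paralog of Rpl7, was at 0.57 (SE 0.328), with 13.21 and 13.64 against 12.42 and 13.28 in NC. Of 16 translation factors and other genes with TOP mRNAs, 15 had a row with a single symbol. Of these, 10 were higher and 5 lower (median 0.075, 0 at an unadjusted limma p under 0.05). Their share of 66.7% higher was near that of the bright rows. The largest were Eef1d, a subunit of the exchange factor of elongation factor 1 (0.38), and on the lower side Eif3f (-0.26) and Eif2s3x (-0.26). Of 12 regulators, 11 had such a row, 9 higher (81.8%) and 2 lower, with 1 at an unadjusted limma p under 0.05. Myc was at 0.059, Mtor at 0.0028 and Larp1 at -0.016. Larp4, a poly(A)- and ribosome-associated protein, was at 0.46 (SE 0.151, unadjusted p = 0.0312, adjusted p = 0.882, limma). Eif4ebp1, a repressor of cap-dependent translation, was at -0.53 (SE 0.269, adjusted p = 0.894, limma), with overlapping groups. Its values were 11.61 and 11.21 in the arrays labelled shMCT-1, against 12.26 and 11.61 in NC, with NC replicate 1 the highest array.

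Genes that build ribosomes showed wide gaps between replicates. Of 20 biogenesis genes, 19 had a row with a single symbol. All 19 had a higher mean in the arrays labelled shMCT-1 (median log2 difference 0.34), against 56.4% of all rows and 61.1% of bright rows. The groups overlapped in all 19, whereas 19.8% of all rows lay apart as higher and 14.0% as lower. An unadjusted limma p under 0.05 was found in 0, against 3.08% of all rows as higher and 2.52% as lower. Relative to each gene's mean, the median of the 19 genes was -0.086 and 0.41 on shMCT-1 replicates 1 and 2, and -0.53 and 0.19 on NC replicates 1 and 2. On shMCT-1 replicate 1, 18 were above NC replicate 1 (median 0.44) and 0 above NC replicate 2 (-0.23). On shMCT-1 replicate 2, 19 were above NC replicate 1 (0.96) and 18 above NC replicate 2 (0.22). In the same order, the shares over all rows were 58.3%, 54.5%, 52.3% and 51.9%, and over bright rows 61.4%, 41.9%, 65.0% and 56.6%. Polr1b, a subunit of RNA polymerase I, was at 9.79 and 10.48, against 8.77 and 9.92 in NC, a difference of 0.79 (SE 0.446). Wdr12, of the PeBoW complex, had 0.65 (SE 0.374). Replicate 1 minus replicate 2 had a median of -0.54 in the arrays labelled shMCT-1 and -0.72 in NC for biogenesis genes, against -0.066 and -0.12 for ribosomal proteins. The difference between these lists was not tested.

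**Figure D4:**
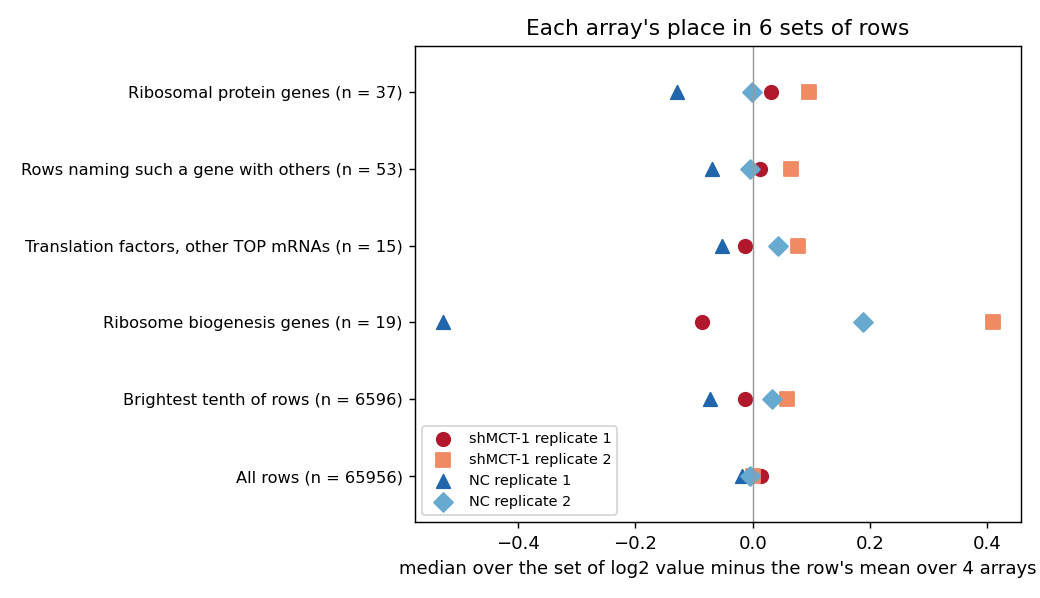
Median over each set of rows of the log2 value minus the row's mean over the 4 arrays, shown for each array. Biogenesis genes run from -0.53 on NC replicate 1 to 0.41 on shMCT-1 replicate 2, ribosomal protein genes from -0.13 to 0.096, and all rows lie close to 0.

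By profile over the 4 arrays, the genes outside the list most like the median ribosomal protein gene were Stk35, a nuclear kinase, the predicted gene Gm10156 and Nup50, a nucleoporin, with Pearson r of 0.999982, 0.99997 and 0.999959 over 4 arrays among 17904 genes compared. With 4 points such values are common, and 288 genes exceeded 0.99.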

How the data were processed

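RNA of 4 samples was hybridised to 4 arrays. The authors summarised them with RMA in Affymetrix Expression Console, per the submitters' processing notes, which name no version, option or build. The deposited values are log2 summaries for 65956 rows, used as given (array medians 3.68 to 3.73). Replicates were not pooled, and 0 columns were left out. The number of arrays limits the precision.

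The probe table listed 32750 rows, 30604 with 1 symbol once repeats of a symbol in a cell were removed. Symbols of 827 rows were updated by gene ID (GRCm38.p6), none of them members. Differences, shMCT-1 minus NC, were fitted on all rows with limma 3.58.1 (R 4.3.3, lmFit and eBayes), two-sided, with Benjamini-Hochberg adjustment at 0.05. The fit had only 2 residual degrees of freedom. Members and lists were chosen with earlier results of these data known. Genes named in full are the extremes of the difference, role groups, the 2 largest of each further list, Mcts1 and the 3 most similar profiles. Further genes were picked with values in view. The alternatives covered moderation, dim rows, scaling, array weights, the replicate block, row choice and each array left out.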

Additional observations from a re-analysis of the deposited data

How the results depend on the processing

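The median log2 difference of the 37 ribosomal protein genes stayed positive under every setting run. Changes of moderation, array weights and the replicate block could not move it. This median was 0.026 when arrays were centred on bright rows, where the median of all rows was -0.054. It ran from 0.034 (without NC replicate 1) to 0.19 (without NC replicate 2) with 1 array left out. The count of genes at an unadjusted p under 0.05 was 1, but 0 with dim rows left out, with median centring, with centring on bright rows and with rows on the gene's own chromosome, 3 (Rpl37a, Rpl7a and Rps9) with the replicate block, and from 0 to 3 with 1 array left out. The share of all rows with such a p in the higher direction moved too, being 3.08% in the fit reported, 7.003% with the replicate block (members 8.11%), 5.22% without NC replicate 2 (members 8.11%) and 1.501% to 2.885% without another array (members 0). Without members below the median row, 31 of 35 genes were higher, and 30 of 35 without Rpl6l and Rpl32l, with medians of 0.11 and 0.10. The number of rows past the adjusted threshold was 0, except 1 (Cldn3, no ribosomal gene) when centred on bright rows. Replicate 1 minus replicate 2 correlated between the groups at r = 0.42 over all rows (0.17 over the 37 genes), and with only 2 pairs the numbers were not taken as pairing. A further quantile normalisation left 26 of the 37 genes higher (70.3%) and median centring 27 (73.0%), while the share over all rows was 50.5% and 49.4%, against 56.4% without them.

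Of 516 results for single genes, 475 kept their direction and 41 in 17 genes turned. Changes of moderation, array weights, the replicate block and dim rows left out do not alter a gene's difference, so their results could not turn. The mean over a gene's rows could change only the 5 genes with more than 1 row. The 475 therefore include results that were fixed in advance. In 0 did a gene pass the adjusted threshold, the lowest adjusted p being 0.353. After quantile normalisation the turned values were -0.025 for Rpl19, -0.023 for Rpl31, -0.074 for Rpl32l, -0.092 for Rps4x, -0.0017 for Rps26 and -0.083 for Rps29. After median centring they were -0.0039 for Rpl32l, -0.0066 for Rpl39l, -0.014 for Rps4x, -0.015 for Rps26 and -0.022 for Rps29. After centring on bright rows they were -0.0081 for Rps24, -0.0083 for Rps20, -0.029 for Rpl31, -0.056 for Rpl32l, -0.059 for Rpl39l, -0.066 for Rps4x, -0.067 for Rps26 and -0.074 for Rps29. The mean over its rows gave -0.016 for Rps26. With 1 array left out, ranges crossed 0 for Rpl10l (-0.016 to 0.37), Rps27l (-0.019 to 0.23), Rps15 (-0.050 to 0.23), Rpl27 (-0.051 to 0.22), Rps19 (-0.0089 to 0.17), Rps24 (-0.064 to 0.20), Rpl32l (-0.043 to 0.088), Rpl39l (-0.067 to 0.11), Rps4x (-0.021 to 0.046), Rps26 (-0.17 to 0.19), Rps29 (-0.051 to 0.059), Rpl39 (-0.040 to 0.0029), Rplp0 (-0.068 to 0.012) and Rpl3l (-0.12 to 0.029). The cause of these turns was not tested. The array left alone in a group was taken to vary as the other group does. Rows on the gene's own chromosome and the set without Rpl6l and Rpl32l were chosen after seeing the data.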
